A study of Mus musculus with 14 samples.

Results

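Oligodendrocytes are the myelin-forming cells of the brain, and they arise from oligodendrocyte precursor cells. Precursor cells carry the growth factor receptor PDGFRA and the proteoglycan NG2, encoded by Cspg4, on their surface, and their identity depends on the transcription factors OLIG1, OLIG2 and SOX10, which mature oligodendrocytes keep. Maturing cells make the proteins of the myelin sheath, among them MBP, MAG, MOG and CNP. Here 9 genes of this lineage were followed in cultured microglia, macrophages that reside in the brain: 5 precursor genes (Pdgfra, Cspg4, Olig1, Olig2 and Sox10) and 4 myelin genes (Mbp, Mag, Mog and Cnp). They were chosen by gene symbol, and each of the 9 matched 1 row of the 49315 genes in the count table.

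The study compared microglia from TIMP2 KO mice, which lack the metalloproteinase inhibitor TIMP2 throughout the body, with microglia from WT mice, both labelled C57BL/6 (a C57Bl/6J background in the study's methods). There were 7 KO and 7 WT libraries, and each came from a pool of the forebrains of 5 pups, male and female together, at postnatal day 6 to 7. Cells were selected with CD11b microbeads, CD11b being an integrin subunit of myeloid cells, plated on poly-d-lysine and sequenced as poly(A) RNA, with 38875344 to 48070236 counted reads per library. The 13 microglia genes of a marker list summed to 9729 to 11981 CPM (counts scaled to library size and TMM factor) in KO and 9328 to 11432 CPM in WT. Timp2 was at 119.6 to 129 CPM in the KO libraries and at 398 to 495 CPM in the WT libraries (log2 fold change -1.92 ± 0.05 SE, edgeR adjusted p = 1.53e-12), so each library matched its label. A count from a bulk culture does not tell fewer cells of a type from less RNA per cell.

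Between cultures, the precursor genes moved over a wide range and the most abundant myelin genes over a narrow one. The summed level of the 5 precursor genes spanned 6.79-fold, from 9.38 CPM in KO 5 to 63.7 CPM in WT 4. The summed level of the 4 myelin genes spanned 1.17-fold, from 128 to 150.5 CPM. Mbp and Cnp, at means of 62.6 and 71.6 CPM, made up most of this sum. Mag and Mog, at means of 5.38 and 0.182 CPM, spanned 1.63-fold and 8.09-fold. In the same libraries the ratio of the myelin to the precursor sum ran from 2.17 in WT 4 to 16.0 in KO 5. These are descriptions of the libraries, and none of the 9 genes passed the test between KO and WT.

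The promoter sequences of members from both groups are shown, since the precursor genes passed a test of common movement over the libraries and the pairs of myelin genes did not. The windows come from RefSeq on GRCm38.p6, which held 7 windows for 6 of the 9 members, and are given 5′ to 3′ up to the first base of the gene in the GENCODE annotation of GRCm38. The E-box CANNTG, the class of site that OLIG proteins and other basic helix-loop-helix factors bind, and the SOX core ACAAAG were searched on both strands and are in capitals where found. Of all 32851 windows of 250 bases, 66.2% held the E-box letters and 16.5% the SOX core letters. The stretches printed below are shorter, at 157 bases for Olig2, 179 for Cspg4, 240 for Mag and 215 for Cnp. Over its full 250 bases, each of these windows held the same number of both motifs as the stretch printed. The Olig2 and Cspg4 stretches printed held neither, and the Mag and Cnp stretches held each of them 1 time. This did not divide the groups, since the window of the precursor gene Pdgfra held 1 E-box and that of the myelin gene Mog held neither motif. A match is only a match of letters.
Olig2, chr16:91225300-91225456, plus strand: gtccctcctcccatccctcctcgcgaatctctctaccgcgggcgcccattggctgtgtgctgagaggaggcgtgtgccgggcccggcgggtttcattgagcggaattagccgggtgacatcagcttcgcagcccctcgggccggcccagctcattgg
Cspg4, chr9:56864854-56865032, plus strand: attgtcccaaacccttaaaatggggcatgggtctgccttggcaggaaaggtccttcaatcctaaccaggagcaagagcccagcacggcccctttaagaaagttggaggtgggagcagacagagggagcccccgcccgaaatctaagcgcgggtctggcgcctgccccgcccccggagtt
Mag, chr7:30914874-30915113, minus strand: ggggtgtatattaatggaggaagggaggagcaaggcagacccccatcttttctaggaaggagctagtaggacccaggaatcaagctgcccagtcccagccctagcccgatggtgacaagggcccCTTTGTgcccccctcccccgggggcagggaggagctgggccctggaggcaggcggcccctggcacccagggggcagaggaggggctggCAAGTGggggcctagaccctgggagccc
Cnp, chr11:100574689-100574903, plus strand: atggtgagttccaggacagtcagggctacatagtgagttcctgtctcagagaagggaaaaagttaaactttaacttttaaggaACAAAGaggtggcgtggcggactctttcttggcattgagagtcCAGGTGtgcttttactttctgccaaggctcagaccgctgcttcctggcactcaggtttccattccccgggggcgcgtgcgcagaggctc

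Pdgfra (ENSMUSG00000029231, GRCm38 chr5:75152292-75198215, plus strand) encodes the alpha receptor for platelet-derived growth factor, the main mitogen of precursor cells. It was at 2.15, 4.82 and 7.10 CPM in the lowest, median and highest KO library and at 3.21, 6.41 and 9.65 CPM in the WT libraries. The groups overlapped, with KO 5 lowest and WT 4 highest. Pdgfra is also made by fibroblasts, so its level alone does not name a cell type.

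Cspg4 (chr9:56865033-56899870, plus strand) encodes NG2, a surface proteoglycan that pericytes make as well. Its levels were 5.38, 9.51 and 29.4 CPM in KO and 5.38, 15.7 and 25.0 CPM in WT. The highest library was KO 7, and the lowest level was shared by WT 5 and KO 5 to the digits given. The ranges of the KO and the WT libraries overlapped over nearly their whole length.

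Olig1 and Olig2 lie next to each other on chromosome 16, at chr16:91269772-91271933 and chr16:91225457-91228677, both on the plus strand, and encode helix-loop-helix factors of the lineage. Olig1 varied most of all members in fold, 21.7-fold over the 14 libraries, from 38 to 848 counted reads. It was at 0.938, 3.92 and 10.3 CPM in KO and at 1.67, 5.38 and 20.3 CPM in WT. Olig2, which acts upstream in specifying the lineage, was at 0.790, 2.31 and 5.21 CPM in KO and at 0.90, 2.52 and 7.5 CPM in WT, a span of 9.49-fold. Both were lowest in KO 5 and highest in WT 4. The ratio of Olig1 to Olig2 CPM was between 1.19 in KO 5 and 2.71 in WT 4.

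Sox10 (chr15:79154908-79165240, minus strand), a transcription factor of the whole lineage that also marks Schwann cells, was the least abundant precursor gene. It had 5 to 51 reads per library, which were 0.123, 0.237 and 0.548 CPM in KO and 0.132, 0.438 and 1.22 CPM in WT. KO 5 was again lowest and WT 4 highest, as for 4 of the 5 precursor genes. Of the Schwann cell list, 4 of 10 genes passed the filter on low counts. Egr2 led that list per kb, at 12.3 CPM.

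The myelin genes Mbp and Cnp had more reads than any precursor gene in every library. Cnp (chr11:100574904-100591729, plus strand) encodes a phosphodiesterase of uncompacted myelin. It was at 62.2, 70.6 and 83.0 CPM in KO and at 65.7, 69.3 and 83.5 CPM in WT, a span of 1.34-fold. Its 154 exon bases shared with Dnajc7 on the other strand, 4.23% of its exons, make part of its count uncertain, as the strand setting of the counting is not given in the sources used here. Dnajc7 was at a mean of 152 CPM.

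Mbp (chr18:82475146-82585637, plus strand), the gene of myelin basic protein, was at 55.4, 62.8 and 64.6 CPM in KO and at 60.3, 63.8 and 69.1 CPM in WT. Its span of 1.25-fold was the narrowest of the 9 genes. The count covers the whole locus with 16 annotated transcripts, from which golli proteins, known from immune cells too, are made besides those of the sheath, and a count per gene does not separate them. Mag (chr7:30899176-30914873, minus strand), an adhesion protein of the inner sheath, was at 3.99, 5.73 and 6.52 CPM in KO and at 4.51, 5.22 and 6.45 CPM in WT. Mog (chr17:37010743-37023398, minus strand), a protein of the outer sheath, had 2 to 16 reads per library, or 0.0505, 0.153 and 0.408 CPM in KO and 0.120, 0.191 and 0.267 CPM in WT. KO 1 held the highest and KO 7 the lowest Mog level.

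**Figure D1:**
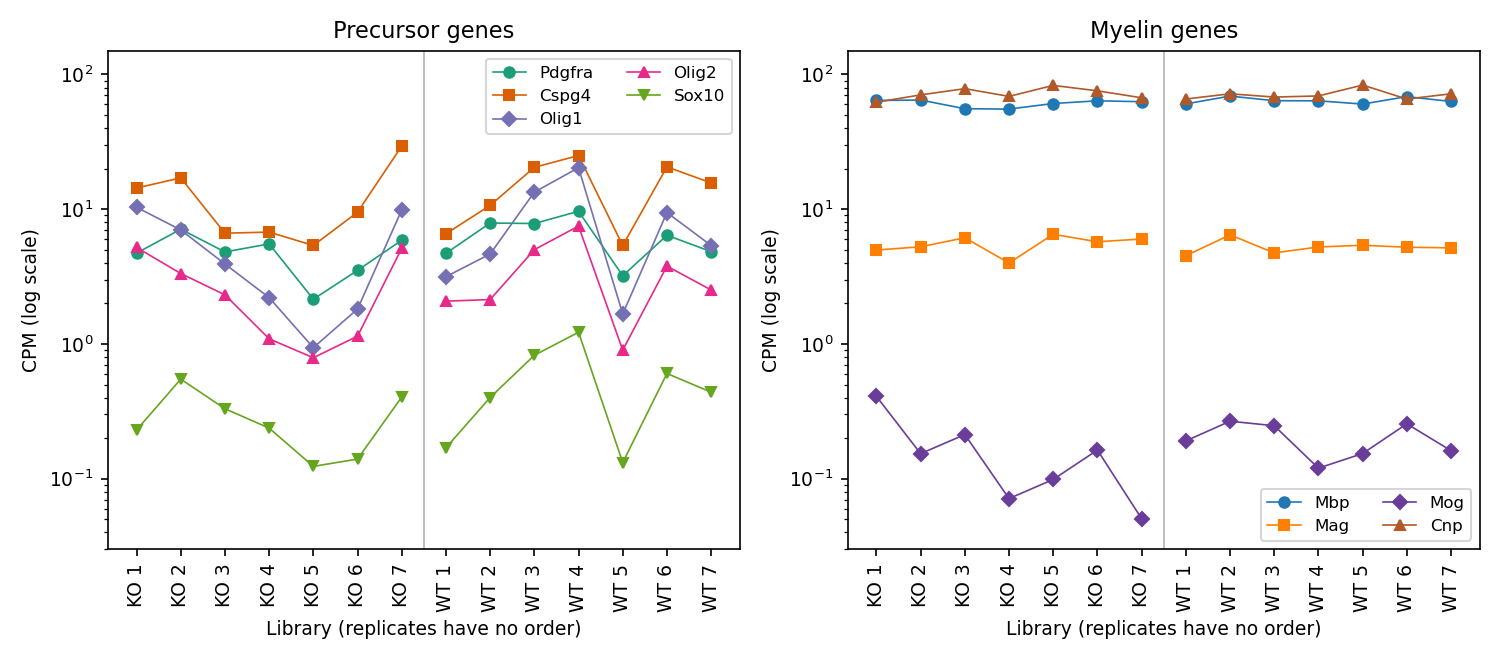
CPM of each gene (log scale, 1 point per library) in the 7 KO and 7 WT libraries, precursor genes on the left and myelin genes on the right; lines only join the points of a gene. Each of the 5 precursor genes is lowest in KO 5 among the KO and in WT 5 among the WT libraries and highest in WT 4 among the WT libraries, while Mbp and Cnp stay between 55.4 and 83.5 CPM.

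All members varied more between libraries than counting alone gives. The variance of the counts over the 14 libraries was 32.1 times that of pure counting for Pdgfra, 189 times for Cspg4, 192 times for Olig1, 56.7 times for Olig2 and 9.93 times for Sox10. It was 24.7 times for Cnp, 10.6 times for Mbp and 4.25 times for Mag, a ratio that grows with the number of reads. It was 1.92 times for Mog, which spanned 8.09-fold at 2 to 16 reads. The biological coefficient of variation fitted by edgeR within genotypes was 0.341 to 0.729 for the 5 precursor genes. Olig1 stood at the 99.0th percentile of the 15700 genes tested. The same measure was 0.0629 for Mbp, 0.0884 for Cnp and 0.150 for Mag, at the 27.3rd, 42.8th and 61.1st percentiles.

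Set against exon length, some neighbours in the order of the members kept their places in every library and others did not. Mean CPM per kb of exon were 19.7 ± 1.77 for Cnp, 7.39 ± 0.464 for Mbp, 3.11 ± 2.53 for Olig1, 1.32 ± 0.179 for Mag, 1.21 ± 0.798 for Olig2, 1.16 ± 0.657 for Cspg4, 0.558 ± 0.204 for Pdgfra, 0.136 ± 0.101 for Sox10 and 0.107 ± 0.0544 for Mog (SD, n = 14). Cnp exceeded Mbp in 14 of 14 libraries, and only these neighbours had ranges that did not overlap. Mbp exceeded Olig1 in 13 libraries, the exception being WT 4. Olig1 exceeded Mag in 11 of 14. Mag and Olig2, Olig2 and Cspg4, and Sox10 and Mog changed places between libraries, with the first of each pair higher in 8, 5 and 7 of 14. Cspg4 exceeded Pdgfra, and Pdgfra exceeded Sox10, within each of the 14 libraries although their ranges over libraries overlapped.

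The summed precursor level was 25.7 ± 14.8 CPM in KO and 33.5 ± 18.4 CPM in WT (SD, n = 7). It was under 20 CPM in 4 of 7 KO libraries and in 2 of 7 WT libraries, and the highest KO library, KO 7 at 50.7 CPM, stood above 6 of the 7 WT libraries. The summed myelin level was 139 ± 7.68 CPM in KO and 140 ± 6.34 CPM in WT. The difference between the genotypes was smaller than the spread between libraries for both sums.

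**Figure D2:**
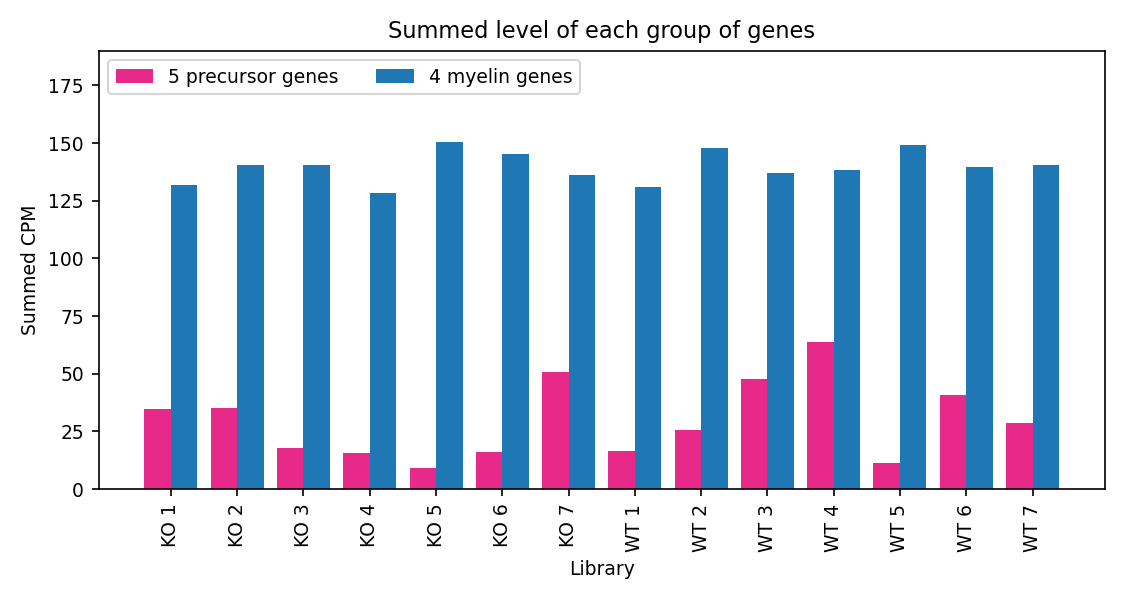
Summed CPM of the 5 precursor genes and of the 4 myelin genes in each library (bars from 0). The precursor bars run from 9.38 CPM in KO 5 to 63.7 CPM in WT 4, and the myelin bars from 128 to 150.5 CPM.

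KO and WT were compared in a fit over all 15700 genes that passed the filter on low counts, which kept 8 of the 9 members. None of the 8 passed an adjusted p of 0.05 in edgeR's quasi-likelihood test, none had an unadjusted p under 0.05, and DESeq2 called none of the 9. Over all genes tested, 3 passed, or 0.0191%, and 3.37% had an unadjusted p under 0.05. No member had KO and WT libraries that did not overlap, against 0.0828% of all genes.

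The precursor genes all had a negative log2 fold change, as did 49.2% of all genes, and wide intervals. Sox10 had the largest, -0.89 ± 0.46 SE (95% interval -1.80 to 0.01, edgeR adjusted p = 0.943). Olig1 followed at -0.68 ± 0.58 SE (interval -1.82 to 0.45, edgeR adjusted p = 0.943). Those of Pdgfra, Olig2 and Cspg4 were -0.40, -0.33 and -0.23, with intervals of -0.91 to 0.11, -1.29 to 0.63 and -1.04 to 0.58. Because the 5 genes moved together between libraries, their common sign is not 5 separate observations. Single libraries weighed on them. Without WT 4 the value was -0.57 for Sox10, -0.29 for Olig1, -0.02 for Olig2, -0.06 for Cspg4 and -0.27 for Pdgfra. The lowest values with 1 library left out were -1.14 for Sox10 and -0.52 for Pdgfra without KO 2, -0.94 for Olig1 and -0.57 for Olig2 without KO 1, and -0.58 for Cspg4 without KO 7.

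The myelin genes had narrow intervals around 0. Mbp was at -0.07 ± 0.04 SE (interval -0.16 to 0.02, edgeR adjusted p = 0.943), Cnp at 0.03 ± 0.07 SE (interval -0.10 to 0.16, edgeR adjusted p = 0.970) and Mag at 0.07 ± 0.11 SE (interval -0.14 to 0.28, edgeR adjusted p = 0.953). A change of Mbp or Cnp as large as the precursor estimates lay outside these intervals. Cnp lies 17.7 Mb from Timp2 on chromosome 11. Mog, which had too few reads for the fit, was at 0.165 ± 0.121 CPM in KO and 0.199 ± 0.0576 CPM in WT (SD, n = 7, two-sided exact permutation test, p = 0.541), and without KO 1 the p was 0.0548.

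**Figure D3:**
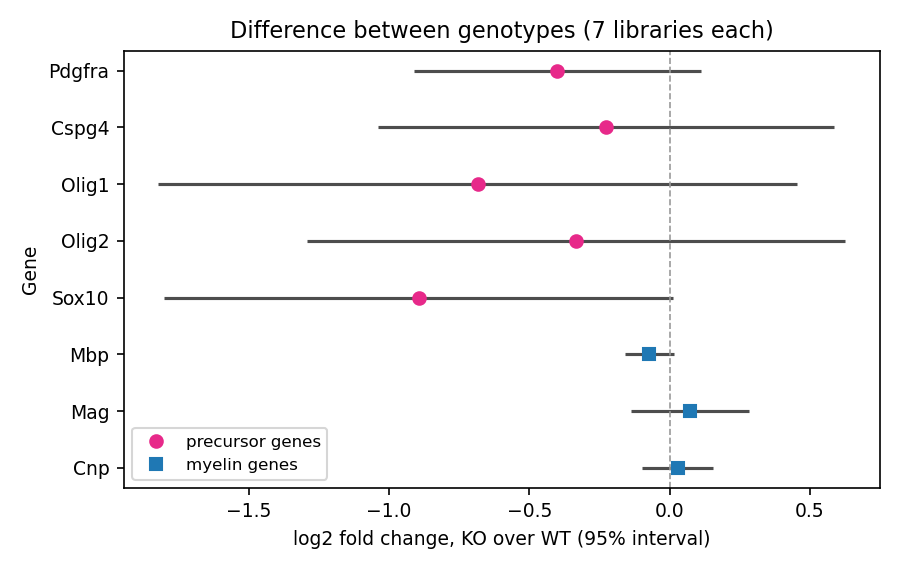
Log2 fold change, KO over WT, of the 8 members tested, with 95% intervals from the standard error of the fit over 7 libraries per genotype. The intervals of the precursor genes are wide and include 0 (Sox10 -1.80 to 0.01), and that of Mbp, the narrowest, runs from -0.16 to 0.02.

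Whether the members varied together was asked within genotypes, as the correlation of log2 CPM over the 14 libraries after the mean of each genotype was removed. Permutation within genotype gave the p, and the 36 pairs of members were adjusted together. All 10 pairs of precursor genes passed, with Pearson r between 0.706 and 0.987 and a median of 0.845, and all 10 passed by Spearman's rho as well. Olig1 and Olig2 were closest (r = 0.987, permutation p = 1e-05, adjusted p = 0.00036, rho = 0.982, permutation p = 1e-05, adjusted p = 0.00036), and r was 0.981 without the 2 libraries farthest from the median of Olig1. The p of 1e-05 is the smallest that 100000 permutations can give. With Olig1, r was 0.823 for Pdgfra, 0.893 for Cspg4 and 0.867 for Sox10. All libraries of a pair of genes share depth and scaling.

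KO 5 and WT 5, the lowest cultures, carried part of this. Without both of them 7 of the 10 precursor pairs passed, with r between 0.520 and 0.982 over 12 libraries. The 3 pairs that no longer passed were Pdgfra with Cspg4 (r = 0.520, adjusted p = 0.320), with Olig1 (r = 0.653, adjusted p = 0.145) and with Olig2 (r = 0.559, adjusted p = 0.272). Olig1 and Olig2 still had r = 0.982 there. This alternative was chosen after seeing the data.

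The myelin genes showed no such pattern. Of their 6 pairs 0 passed, by the permutation test on Pearson's r and on Spearman's rho, and 0 had an unadjusted p under 0.05 for Pearson's r. By Spearman's rho, Mag with Cnp had an unadjusted p under 0.05 (rho = 0.640, permutation p = 0.0218, adjusted p = 0.0712). The r were between -0.325 for Mbp with Cnp and 0.535 for Mag with Cnp. Whether the precursor pairs were more closely related than the myelin pairs was not tested.

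Between the groups, 2 of 20 pairs passed, and both were negative. Cnp was lower where Olig1 was higher (r = -0.711, permutation p = 0.00772, adjusted p = 0.0253, rho = -0.574, permutation p = 0.0455, adjusted p = 0.136) and where Olig2 was higher (r = -0.713, permutation p = 0.00854, adjusted p = 0.0256, rho = -0.560, permutation p = 0.0505, adjusted p = 0.140). Without the 2 libraries farthest from the median r was -0.434 with Olig1 and -0.668 with Olig2. Without KO 5, without WT 5 or without both, 0 of the 20 pairs passed, so whether these 2 relations passed depended on those libraries. Without both, r of Cnp was -0.434 with Olig1 and -0.456 with Olig2, over fewer libraries. Without WT 1, 4 passed, and without KO 1, 1 passed. Mbp had positive r with all 5 precursor genes, 0.279 to 0.582, none past the threshold.

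**Figure D4:**
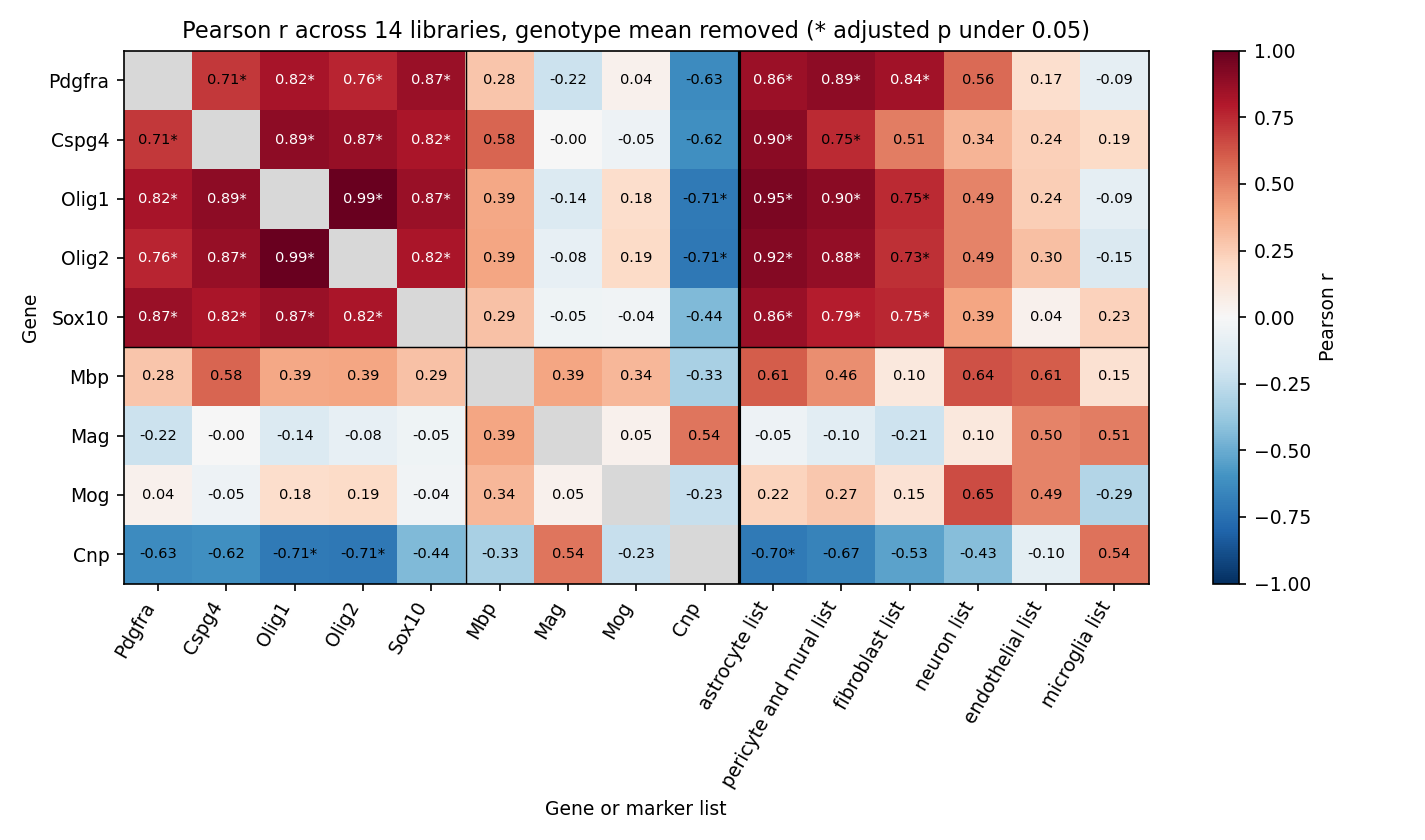
Pearson r across the 14 libraries after removal of the genotype mean, between the 9 members (left of the thick line) and with the mean log2 CPM of 6 marker lists (right); asterisks mark an adjusted p under 0.05. The block of 10 precursor pairs is positive throughout, 0.706 to 0.987, and the precursor genes also follow the astrocyte list, 0.858 to 0.945.

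CD11b selection can leave other cells of the forebrain in a culture, so the members were set beside markers of those cells, as 54 relations adjusted together, of which 15 passed. The astrocyte list was led per kb by Gfap, an intermediate filament gene, which ranged from 2.54 to 84.5 CPM. All 5 precursor genes followed the astrocyte list, with r from 0.858 for Pdgfra to 0.945 for Olig1, and each of them also passed by Spearman's rho. The summed level of the 15 astrocyte genes was 36.9 to 175 CPM in KO and 42.6 to 334 CPM in WT. It was lowest in KO 5 and WT 5 and highest in WT 4, as for the precursor sum. Olig1, Olig2, Sox10 and Cspg4 are not markers of mature astrocytes, though OLIG2 is known from some astrocytes and their progenitors.

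The pericyte and mural list, led by the aminopeptidase gene Anpep, was followed by all 5 precursor genes (r = 0.748 to 0.902). The fibroblast list, led by the matrix protease gene Mmp2, was followed by Pdgfra, Olig1, Olig2 and Sox10 (r = 0.733 to 0.840). Anpep made up most of the pericyte and mural sum, at 59.8 to 172 CPM, and itself had r = 0.07 with the mean z score of the precursor genes. The median r of the 8 tested genes of this list with that score was 0.40. Notch3, Acta2 and Tagln, named after their values were seen, had r of 0.96, 0.97 and 0.93, and Rgs5, Abcc9 and Vtn had -0.02, 0.08 and -0.42. Without KO 5 and WT 5, 8 of the 54 relations passed, 4 with the astrocyte, 3 with the pericyte and mural and 1 with the fibroblast list. With the neuron list (led by Gap43), the endothelial list (led by Flt1) and the microglia list, 0 of 27 relations passed by the permutation test on Pearson's r, 4 had an unadjusted p under 0.05, and 1 (Mbp with the neuron list) passed by Spearman's rho.

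By Pearson's r, Cnp was the only myelin gene to pass with a list, a negative relation with the astrocyte list (r = -0.705, permutation p = 0.00743, adjusted p = 0.0267, rho = -0.503, permutation p = 0.0827, adjusted p = 0.203), with r = -0.391 without the 2 libraries farthest from its median. With the microglia list Cnp had r = 0.543 (permutation p = 0.0537, adjusted p = 0.132) and Mag r = 0.510 (permutation p = 0.0731, adjusted p = 0.164). The part of other cell types in the levels of the members was not tested.

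**Figure D5:**
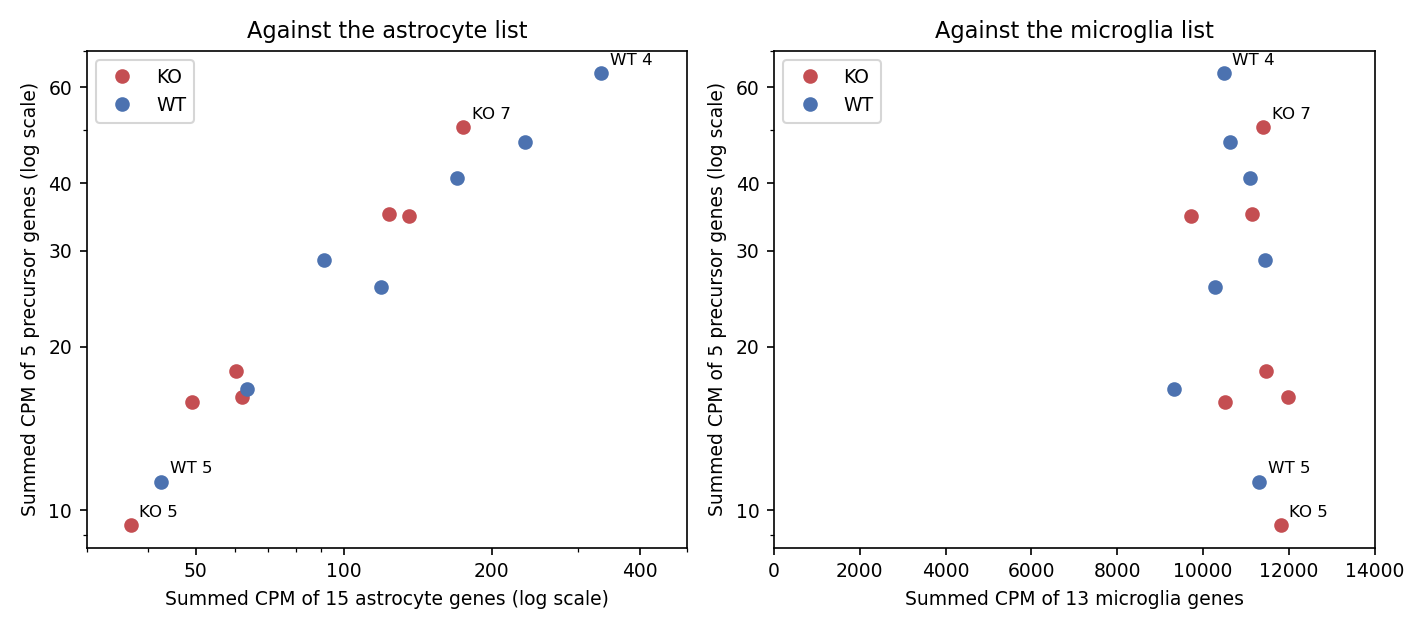
Summed CPM of the 5 precursor genes (log scale) against the summed CPM of the 15 astrocyte genes (log scale, left) and of the 13 microglia genes (linear scale from 0, right), 1 point per library. The precursor sum climbs with the astrocyte sum from KO 5 to WT 4, while the microglia sum stays between 9328 and 11981 CPM.

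The wider lineage was read from 18 other precursor genes and 23 other myelin genes. Of the other precursor genes, 15 passed the filter on low counts, and 0 passed the test in either direction (0 also at an unadjusted p under 0.05, and 0 by DESeq2). Of these, 14 had a negative and 1 a positive log2 fold change, with a median of -0.56, beside 0.00 over all genes tested, and without WT 4 the median was -0.24. The lists of other cell types also had mostly negative values, 13 of 13 for astrocytes (median -0.73), 13 of 15 for neurons (-0.30), 7 of 8 for pericytes and mural cells (-0.35) and 7 of 8 for fibroblasts (-0.27), and none of these genes was called. Over all genes tested, 49.2% were negative. Since 10 of 13 astrocyte and 10 of 15 other precursor genes had r over 0.8 with the precursor score, their common signs are not separate observations. The endothelial list had 3 of 8 negative (median 0.09), the Schwann cell list 3 of 4 (-0.21) and the microglia list 2 of 13 (0.04). Their part in the values of the lineage genes was not tested. The list of other precursor genes was led per kb by Epn2, an endocytic adaptor gene, at 8.80 ± 1.37 CPM in KO and 10.3 ± 1.65 CPM in WT, by the brevican gene Bcan at 3.77 ± 2.16 and 5.63 ± 3.8 CPM, and by C1ql1, a secreted C1q-like protein gene, at 1.41 ± 0.619 and 1.83 ± 0.496 CPM (SD, n = 7). Epn2 and Lhfpl3 had the smallest p, with log2 fold changes of -0.23 and -0.83 (edgeR adjusted p = 0.943 for both). Gpr17, which marks precursors committed to maturation, had a mean of 0.276 CPM and did not pass the filter. Bcas1 and Enpp6 of the same list had means of 1.98 and 0.766 CPM and passed it. These genes were named after their values were seen.

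Of the other myelin genes, 13 of 23 passed the filter, 0 were called, and 1 had an unadjusted p under 0.05. They had 12 negative log2 fold changes and 1 positive, beside 49.2% negative over all genes tested. Their median was -0.39, which was -0.13 without WT 2. That 1 gene was the tetraspanin gene Tspan2, at 0.499 ± 0.199 CPM in KO and 0.798 ± 0.222 CPM in WT (SD, n = 7, log2 fold change -0.67 ± 0.27 SE, edgeR adjusted p = 0.943). The tight junction gene Cldn11 came next (-0.44 ± 0.24 SE, edgeR adjusted p = 0.943). The list was led per kb by Evi2a at 117.7 CPM per kb, by the glycosyltransferase gene Galnt6 at 15.4 and by Tppp3 at 0.892. Over the 14 libraries they spanned 1.40-fold, 1.70-fold and 2.84-fold. Their r with the mean z score of the precursor genes was -0.67, 0.32 and 0.76. Which cells of the cultures made this RNA was not tested.

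Mobp and Opalin, genes of mature oligodendrocytes, stood low beside Mbp and Cnp. Mobp, a gene of the myelin sheath, had a mean of 1.14 CPM. Opalin was at 0 reads in 7 of 14 libraries, and 10 of the 23 other myelin genes did not pass the filter. Mobp and Opalin were named after their values were seen. Mean CPM per kb was 0.167 for Mobp, against 7.39 for Mbp and 19.7 for Cnp.

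The genes most like each group in their course over the 14 libraries were taken from the tested genes that are no members, by Pearson's r with the mean z score of the group. The most like the precursor genes were the adhesion gene Cadm4 (r = 0.990), the receptor gene Fgfr3 (0.987), Mir9-3hg (0.987), the protocadherin gene Pcdh10 (0.987) and Tnr (0.987), the gene of the matrix protein tenascin-R. Fgfr3 is on the astrocyte list and Tnr on the list of other precursor genes. Of the tested genes of those lists, 10 of 13 astrocyte genes and 10 of 15 other precursor genes had r over 0.8, beside 1054 of all 15700. The genes most like the myelin group were Ampd2 (r = 0.887), Crim1 (0.872), Tbc1d10c (0.858), Wfdc18 (0.851) and Tiam1 (0.846), none of them on a list used here. The myelin score leaves out Mog, and r with it was 0.940 for Mag, 0.590 for Cnp and 0.521 for Mbp. It thus follows Mag most, and no pair of myelin genes passed the test above. The genes named for each group have the highest r of 15700 genes, and these r were not tested.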

How the data were processed

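Poly(A) RNA of 14 cultures of primary microglia, 7 TIMP2 KO and 7 WT, was sequenced as paired-end reads. The authors deposited raw counts per Ensembl gene, without normalization, on GRCm38. The submitters' processing notes name Trimmomatic 0.36, STAR 2.5.2b, featureCounts of Subread 1.5.2 and DESeq2. The strand setting, the annotation release and the batch of each library are not given in the sources used here, so no within-batch value could be had. Symbols, exon lengths and positions came from the GENCODE annotation of GRCm38, to which 49056 of 49315 genes were matched. Replicates are separate pools of pups. Depth was 38875344 to 48070236 counted reads per library.

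The function filterByExpr, at a minimum count of 10 and a minimum total of 15, kept 15700 genes, and TMM factors scaled the libraries. A two-sided quasi-likelihood test (edgeR 4.0.16, R 4.3.3) compared KO with WT, and p-values were adjusted by Benjamini-Hochberg over these genes, with 0.05 as the threshold. Intervals of 95% come from the standard error. Mog, which the filter dropped, was tested by exact permutation. Log2 CPM had a prior count of 1, and levels between genes were divided by the kb of exon. Correlations were tested by 100000 permutations within genotype (random seed 1) with Python 3.11.15, numpy 2.4.6 and scipy 1.17.1, adjusted over 36 pairs of members and over 54 pairs of a member and a marker list. The scripts were tested on simulated data.

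Alternatives were other scaling factors, no filter, DESeq2 1.42.0, the replicate number as a block, another prior count, the genotype mean kept, the longest transcript as length, and each library left out in turn. The members and lists were chosen with earlier results of these data known. The text names the members, Timp2, in each wider lineage list the 3 genes highest per kb, the 2 with the smallest p and any past the threshold, the gene highest per kb of each other list, and the 5 genes most like each group, except for 1 gene that is not reported here. Sequences came from RefSeq promoter windows of GRCm38.p6. Deviations of KO and WT libraries with the same replicate number correlated at -0.196 to 0.743, over 0.1 in 3 of 7 pairs, so the numbers were not taken to pair the samples. The value of 0.743 was that of KO 5 with WT 5. The study's methods include batch as a covariate, and whether KO 5 and WT 5 shared a batch is not given. The permutations treated them as separate libraries.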

Additional observations from a re-analysis of the deposited data

Results flagged for a closer look

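In each genotype, the levels of the 9 members and the summed levels of 11 marker lists were searched for a library far from the other 6, on the log2 scale. Of 40 groups of values, 2 had one, and chance gives about 1 in 20. Cnp in WT 5 was at 83.5 CPM, above the next WT library at 71.9 CPM. The summed Schwann cell list in WT 5 was at 13.6 CPM, below the next WT library at 20.2 CPM. Without WT 5, no pair of a precursor and a myelin gene passed, with 1 library fewer. The part of this library in the negative relations of Cnp was not tested further.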

How the results depend on the processing

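The members past the threshold, and the other precursor and other myelin genes past it, numbered 0 under all alternatives tried. Over all genes, 3 to 4 passed with a library left out, 16 with DESeq2 and 27 with DESeq2 and the replicate block, of which 8 and 16 were higher in KO. The median log2 fold change of all genes was -0.012 with upper-quartile factors and -0.0099 with library size alone. The sign of each log2 fold change of a member held under every alternative except for Cnp, which ran from -0.0077 without KO 5 to 0.072 without WT 5. With the block, precursor with myelin pairs that passed rose from 2 to 9. Of these, Mbp had 5, all positive, and Cnp 4, all negative. Relations with marker lists rose from 15 to 27. Removing the block leaves the KO and the WT library of a number with equal and opposite values. The permutations still shuffled these as 14 separate values, so the p-values of relations with the block are too small. These counts cannot be set against those of the other alternatives. Only 3 of 14 libraries were most alike the library of their own number, and the block changed no call on KO over WT among the members. Precursor with myelin pairs numbered 1 with library size alone, 4 with the genotype mean kept, 0 without both libraries numbered 5, and 0 to 4 with 1 library left out. Relations with lists numbered 8 without both libraries numbered 5 and 10 to 18 with 1 left out, and precursor pairs 7 and 8 to 10. With the longest transcript as length, mean CPM per kb were 0.818 for Pdgfra, 13.0 for Mbp, 2.21 for Mag and 24.6 for Cnp, and Cspg4 and Olig2 changed places. Apart from the smaller number of libraries and the p-values of relations with the block, the cause of these differences was not tested. Few reads limit Mog and Sox10.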
